A study of Mus musculus with 4 samples.

Results

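Platelet and megakaryocyte genes were followed through hematopoietic stem cells of mouse bone marrow, as 10 genes among the 31053 listed in the count tables. They were Vwf, Gp9, Gp1bb, Itga2b, Itgb3, Selp, Treml1, F2r, Pf4 and Plek, chosen by name, and all 10 were found. Transcripts were counted by 10x Chromium 3' v3, a droplet method that marks each captured RNA molecule with a unique molecular identifier (UMI), in 4 libraries. Long-term hematopoietic stem cells (LT-HSC) and short-term hematopoietic stem cells (ST-HSC) had been sorted from the same 2 mice, so each gate had 2 libraries. Per the labels and the series record, LT-HSC were sorted as cells with CD150 (Slamf1) and ST-HSC as cells without it, and in both gates the cells lacked lineage markers and CD48 and carried Kit and Sca-1. Both mice were males of the strain Tie2-bG-Micm x RosaYFP aged 14 weeks, so both gates carried a Cre driven by Tie2, which endothelial and stem cells use, and a YFP reporter. The comparison asked which of the genes differ between the gates, and the single cells then showed whether they occur together.

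Platelets are shed by megakaryocytes, which arise from stem cells. Their surface receptors catch them at a wound and their granules release proteins there: von Willebrand factor (Vwf) tethers platelets through the complex that Gp9 and Gp1bb are part of, and the integrin of Itga2b and Itgb3 binds fibrinogen and joins platelets to each other. Some stem cells, mostly in the LT-HSC compartment, are known to transcribe such genes, and Vwf and Itga2b (CD41) have been used as marks of platelet-biased stem cells in mice.

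Promoters, from 250 bases before to 50 bases after the RefSeq start of transcription, were given for 8 of the 10 genes (build GRCm38.p6); Vwf and Itgb3 were the others. Gp9 and Itga2b are shown as genes that were higher in LT-HSC, Plek as the one that was lower and Pf4 as the one that passed no test. They run along each gene's own strand, and capitals mark GATAA and GGAAG, core letters of sites for GATA and ETS factors, also when they lie on the other strand, as TTATC and CTTCC. The windows were chr6:87777820-87778119 on the plus strand for Gp9, chr11:102469834-102470133 on the minus strand for Itga2b, chr5:90772185-90772484 on the plus strand for Pf4 and chr11:17008669-17008968 on the minus strand for Plek, which lies inside the span annotated for that gene.
Gp9: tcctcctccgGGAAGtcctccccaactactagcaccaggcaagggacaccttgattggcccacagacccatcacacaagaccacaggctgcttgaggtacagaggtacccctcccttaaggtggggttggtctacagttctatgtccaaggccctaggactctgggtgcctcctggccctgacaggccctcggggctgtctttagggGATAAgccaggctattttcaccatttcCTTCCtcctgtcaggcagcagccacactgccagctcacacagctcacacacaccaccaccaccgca
Itga2b: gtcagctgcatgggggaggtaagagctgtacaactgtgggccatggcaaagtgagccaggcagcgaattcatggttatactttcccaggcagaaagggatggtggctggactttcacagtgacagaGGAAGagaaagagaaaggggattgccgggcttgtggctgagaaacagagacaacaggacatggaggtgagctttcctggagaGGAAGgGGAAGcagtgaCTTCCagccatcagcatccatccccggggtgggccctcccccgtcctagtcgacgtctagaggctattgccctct
Pf4: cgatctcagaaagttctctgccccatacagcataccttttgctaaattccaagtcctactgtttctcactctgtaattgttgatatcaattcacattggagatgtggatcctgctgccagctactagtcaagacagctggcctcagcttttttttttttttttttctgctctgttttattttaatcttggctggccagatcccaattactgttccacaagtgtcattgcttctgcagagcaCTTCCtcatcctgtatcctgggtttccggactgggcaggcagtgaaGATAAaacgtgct
Plek: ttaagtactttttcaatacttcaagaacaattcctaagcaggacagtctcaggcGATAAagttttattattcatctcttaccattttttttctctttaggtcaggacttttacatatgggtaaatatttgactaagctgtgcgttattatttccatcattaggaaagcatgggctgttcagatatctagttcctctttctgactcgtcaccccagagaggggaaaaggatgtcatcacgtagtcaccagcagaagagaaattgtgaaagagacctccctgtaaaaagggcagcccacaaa
Gp9 held 1 GATAA and 2 GGAAG, Itga2b held 4 GGAAG and no GATAA, Pf4 held 1 of each, and Plek held 1 GATAA and no GGAAG. Of 27025 promoters of the same length, 25.8% held GATAA, 71.1% held GGAAG and 17.4% held both. The nearest matches to the start of transcription were GGAAG letters at -16 in Gp9, -25 in Itga2b and -9 in Pf4, while the GATAA of Plek lay at -196. Among the other windows, Gp1bb and Selp held 3 GGAAG each, Treml1 held 1 and F2r held neither motif. The motifs do not overlap each other in these windows, and a match is only a match of letters.

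A barcode counted as a cell from 1000 genes and 2000 UMIs upward if no more than 10% of its UMIs were mitochondrial (a kept cell). LT-HSC of mouse 1 stood apart as a library: 22 of its 39553 barcodes passed, with 115305 UMIs, against 1217 cells and 13249904 UMIs in LT-HSC of mouse 2, 2633 cells and 27870823 UMIs for ST-HSC of mouse 1, and 1707 cells and 13566531 UMIs for its mouse 2 library. At 3 counts the floor was 26.0 UMIs per 1e6 (CPM) in those 22 cells and 0.108 to 0.226 CPM in the other 3 libraries. Each gate result is therefore given a second time with that library unfiltered, as the sum of every barcode in it, 13575402 UMIs, a choice made after the data had been seen; there the sum of 8 erythroid markers was 1595 CPM, against 95.4 to 409 CPM in the kept cells of the 4 libraries, and its part in the results was not tested. Kept cells of different libraries shared 1 barcode in each of 2 pairs of libraries and none in the other pairs. Slamf1 had 32.8 and 22.4 CPM in LT-HSC of mice 1 and 2, against 0.831 and 1.45 CPM in ST-HSC, so the gates differed in the gene of the sorted protein.

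In the gate comparison, 6 of the 10 genes were higher in LT-HSC (Vwf, Gp9, Itga2b, Itgb3, Selp and F2r), 1 was lower (Plek), 1 passed no test (Pf4), and Gp1bb and Treml1 did not pass the filter on low counts and were not tested. The sums of UMIs over the kept cells of each library were compared with edgeR at an adjusted p of 0.05; of 12656 genes tested, 3.6% were higher and 3.13% lower in LT-HSC. The members' median log2 fold change was 1.22, against -0.02 over all genes tested. With the unfiltered library, 7 members were higher, Treml1 among them, and Plek was again lower, beside 5.04% of genes higher and 3.82% lower. A filter on low counts decided which members were tested, so the count and median over those tested are not counts over the 10. DESeq2 on kept cells called 1 member, Vwf, higher and 0 lower, beside 0.18% of genes higher and 0.159% lower; with the unfiltered library it called the same 7 members higher and Plek lower as edgeR, beside 3.04% and 2.64%. Without LT-HSC of mouse 2, the LT-HSC side is 1 library that is taken to vary as the ST-HSC libraries do. On kept cells edgeR then called 0 members, with 3 (Vwf, Itga2b and Selp) at an unadjusted p under 0.05, beside 0.00776% of genes higher and 0% lower. With the unfiltered library of mouse 1 as that 1 library it called 9 members higher, Pf4 and Gp1bb among them, and Plek lower, beside 4.26% of genes higher and 4.03% lower. The test rests on 2 mice, and of the kept LT-HSC UMIs 115305 came from mouse 1 and 13249904 from mouse 2. The kept-cell p-values thus rest largely on 1 LT-HSC library. Fewer cells with a transcript cannot be told apart from less of it per cell in these sums.

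**Figure D1:**
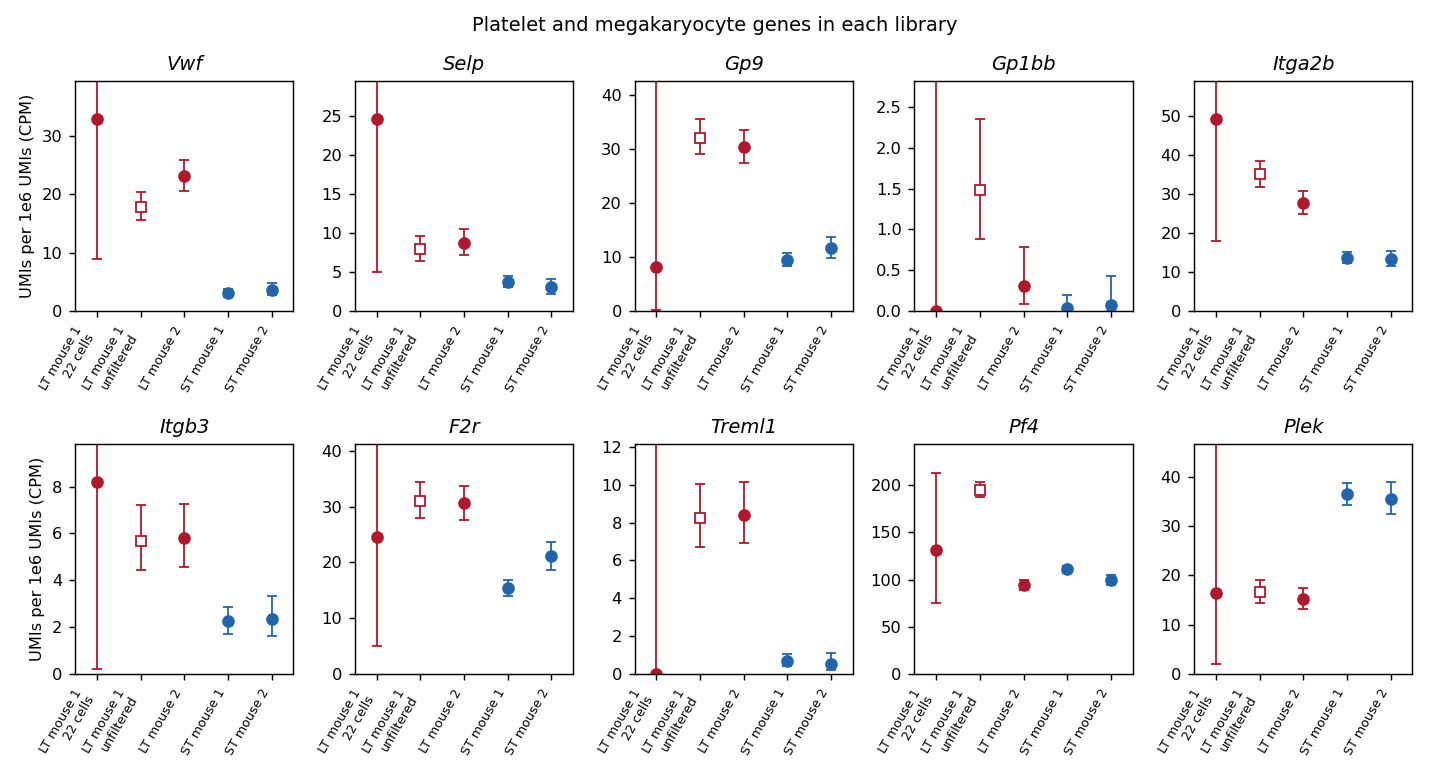
UMIs per 1e6 (CPM, linear axis from 0) of each gene in each library, LT-HSC in red at left and ST-HSC in blue at right, with exact Poisson 95% intervals that cover counting error only; the open square is the unfiltered LT-HSC library of mouse 1, and intervals of its 22 kept cells run past the axis in 9 of the panels. LT-HSC of mouse 2 lay above both ST-HSC libraries for every gene but Pf4 and Plek.

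Vwf, the adhesive protein that ties platelets to collagen, showed the largest difference among the members tested on kept cells. It had 32.8 and 23.1 CPM in LT-HSC of mice 1 and 2, against 3.04 and 3.65 CPM in ST-HSC. Both LT-HSC libraries were far above both ST-HSC libraries, although the first rested on 4 UMIs and the other three on 300, 84 and 48. The unfiltered library of LT-HSC of mouse 1 held 216 Vwf UMIs, at 17.8 CPM. The log2 fold change was 2.84 (SE 0.28, edgeR adjusted p = 3.32e-20) on kept cells and 2.67 (SE 0.20, adjusted p = 7.80e-06) with the unfiltered library. Vwf lies at chr6:125546774-125686679 on the plus strand (GRCm38) and overlaps no other annotated gene.

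Gp9 and Gp1bb encode small subunits of the platelet receptor for Vwf. Gp9 had 8.20 and 30.3 CPM in LT-HSC of mice 1 and 2, against 9.54 and 11.6 CPM in ST-HSC. The value of LT-HSC of mouse 1 was a single UMI and lay below both ST-HSC libraries, while unfiltered it gave 390 UMIs and 32.2 CPM, close to mouse 2. The log2 fold change was 1.47 (SE 0.22, edgeR adjusted p = 1.01e-08) on kept cells and 1.62 (SE 0.17, adjusted p = 7.99e-05) with the unfiltered library. Without LT-HSC of mouse 2 it was -0.36 on kept cells, where the group is then that 1 UMI.

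Gp1bb was close to absent. It had 0 UMIs in kept LT-HSC of mouse 1 and 4 in those of mouse 2, against 1 in each ST-HSC library. The pooled ratio of LT-HSC to ST-HSC was 6.20 with a 95% counting interval of 0.889 to 68.5, and with the unfiltered library, where LT-HSC of mouse 1 had 18 UMIs, it was 17.0 (4.18 to 149). The first interval spans equality and the second does not; both cover counting error only. Gp1bb (chr16:18620317-18622403, minus strand) overlaps the neighbouring gene Sept5 and a second annotated gene, Gm49601, on the same strand, so its few counts are uncertain. Sept5 itself had 13 UMIs or fewer in each library.

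Itga2b and Itgb3 encode the chains of the fibrinogen receptor. Itga2b had 49.2 and 27.8 CPM in LT-HSC of mice 1 and 2, against 13.6 and 13.4 CPM in ST-HSC. Itgb3 had 8.20 and 5.79 CPM in LT-HSC, against 2.24 and 2.36 CPM in ST-HSC. For both chains the LT-HSC libraries lay above the ST-HSC libraries without overlap, and the ST-HSC libraries nearly coincided, but LT-HSC of mouse 1 rested on 6 UMIs of Itga2b and 1 of Itgb3. The log2 fold changes were 1.09 for Itga2b (SE 0.22, edgeR adjusted p = 5.05e-05) and 1.35 for Itgb3 (SE 0.39, adjusted p = 0.0119). With the unfiltered library, at 35.1 and 5.69 CPM, they were 1.26 (adjusted p = 5.78e-04) and 1.36 (adjusted p = 0.00517). Without ST-HSC of mouse 1, Itga2b missed the threshold on kept cells (edgeR adjusted p = 0.0809) at a fold change of 1.15.

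Selp (P-selectin) and Treml1 encode membrane proteins of the platelet's alpha granules, which reach the surface when a platelet is activated. Selp had 24.6 and 8.72 CPM in LT-HSC of mice 1 and 2, against 3.72 and 3.04 CPM in ST-HSC, with 3, 113, 103 and 40 UMIs behind them. The groups did not overlap, and the log2 fold change was 1.44 (SE 0.34, edgeR adjusted p = 8.94e-04), or 1.32 (adjusted p = 0.00280) with the unfiltered library, where LT-HSC of mouse 1 lay at 7.91 CPM. Treml1 had 0 UMIs in the 22 cells of LT-HSC of mouse 1 and 109 (8.41 CPM) in LT-HSC of mouse 2, against 19 (0.687 CPM) and 7 (0.533 CPM) in ST-HSC. The 0 lies below that library's floor, and unfiltered it held 100 Treml1 UMIs, at 8.24 CPM. With no filter on low counts, edgeR called Treml1 higher on kept cells (log2 fold change 3.65, adjusted p = 3.50e-17), while DESeq2 there did not call it (3.19). The log2 fold change with the unfiltered library was 3.75 (SE 0.30, edgeR adjusted p = 1.13e-05), larger than that of Vwf in the same fit, and the 95% counting interval of the pooled ratio on kept cells was 8.41 to 20.8. Antisense transcripts that overlap Selp, Gm16587 and Gm16548, had 5 UMIs or fewer in each library.

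F2r encodes the thrombin receptor PAR1, which human platelets use; mouse platelets respond to thrombin mainly through F2rl2 and F2rl3. F2r had 24.6 and 30.5 CPM in LT-HSC of mice 1 and 2, against 15.4 and 21.1 CPM in ST-HSC. Both LT-HSC libraries, the first on 3 UMIs, lay above both ST-HSC libraries, with a smaller fold change than the other 5 genes that were higher. The log2 fold change was 0.75 (SE 0.22, edgeR adjusted p = 0.0115) on kept cells and 0.81 (SE 0.17, adjusted p = 0.0106) with the unfiltered library. The call was the least stable one: with the mouse as a block the fold change on kept cells was 0.55 (adjusted p = 0.316), and leaving out LT-HSC of mouse 1, ST-HSC of mouse 1 or ST-HSC of mouse 2 gave fold changes of 0.76, 0.51 and 0.96 with adjusted p-values of 0.0609, 0.921 and 0.0845. F2rl3, the receptor of mouse platelets, had 0 and 22.4 CPM in LT-HSC of mice 1 and 2, against 18.0 and 24.1 CPM in ST-HSC, with a log2 fold change of 0.04 that passed no test.

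Pf4, the platelet factor 4 chemokine of the alpha granules, was the member with the most UMIs, and its gates overlapped. It had 131 and 94.4 CPM in LT-HSC of mice 1 and 2, against 111 and 99.3 CPM in ST-HSC. LT-HSC gave both the highest and the lowest library, and the log2 fold change was -0.09 (SE 0.19, edgeR adjusted p = 0.992). With the unfiltered library, LT-HSC of mouse 1 had 195 CPM, for a log2 fold change of 0.52 (SE 0.28, adjusted p = 0.352). Ppbp, the next chemokine gene on chromosome 5 (2372 bases away, same strand), had 8.20 and 2.62 CPM in LT-HSC, against 3.80 and 3.04 CPM in ST-HSC, and also passed no test.

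Plek, the gene of pleckstrin, the main protein kinase C substrate of platelets and also made by white blood cells, went against the others. It had 16.4 and 15.2 CPM in LT-HSC of mice 1 and 2, against 36.4 and 35.5 CPM in ST-HSC. The libraries of each gate nearly coincided, and those of LT-HSC lay below those of ST-HSC; LT-HSC of mouse 1 rested on 2 UMIs, with a counting interval of 1.99 to 59.2 CPM that spans both ST-HSC values. The log2 fold change was -1.24 (SE 0.23, edgeR adjusted p = 6.63e-06), and -1.13 (SE 0.15, adjusted p = 4.92e-04) with the unfiltered library, where LT-HSC of mouse 1 had 202 Plek UMIs and 16.7 CPM. Leaving out ST-HSC of mouse 1 kept the fold change at -1.22 and moved the adjusted p to 0.0558. Neutrophil markers, 8 genes that summed to 26.0 and 142 CPM in LT-HSC of mice 1 and 2 against 570 and 1872 CPM in ST-HSC, moved the same way; leaving out the 27 kept cells with 5 or more UMIs of them left the fold change of Plek at -1.25. Plek (chr11:16971206-17052381, minus strand) overlaps Cnrip1 on the other strand. Cnrip1 had 8.20 and 34.4 CPM in LT-HSC, against 46.2 and 47.9 CPM in ST-HSC. The sources used here do not say whether the authors' counting used strand, so reads of these overlapping genes may not be told apart.

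**Figure D2:**
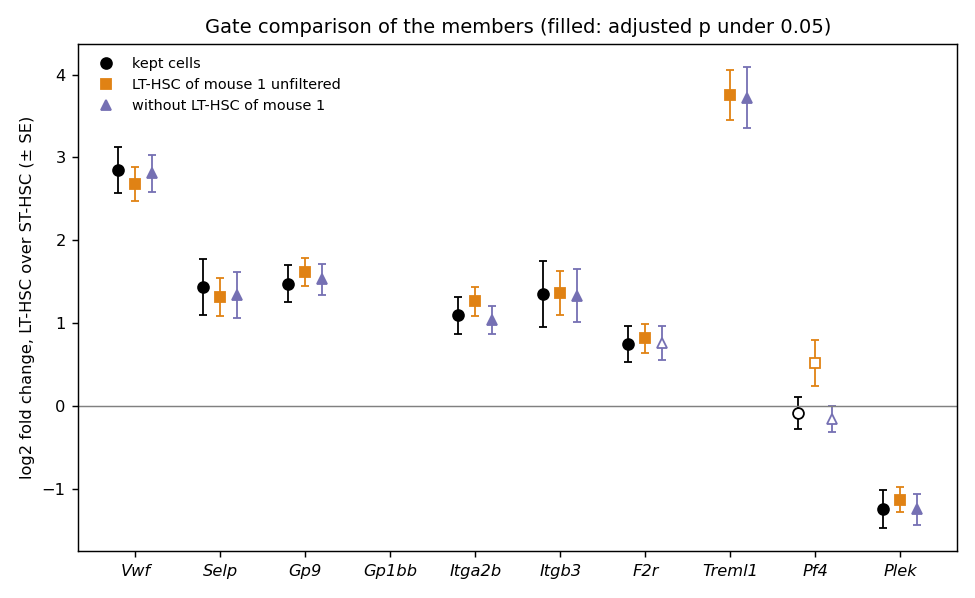
Log2 fold change of LT-HSC over ST-HSC with its standard error from edgeR for kept cells, with the unfiltered library, and without that library; filled symbols passed an adjusted p of 0.05, and Gp1bb was not tested in these fits. Plek lay below 0 in all 3 fits, Pf4 passed in none, and F2r missed the threshold without LT-HSC of mouse 1.

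The share of cells with a UMI followed the sums. Each cell was thinned to 2000 UMIs so that depth was equal, and shares carry exact binomial 95% intervals. A Vwf UMI was seen in 4.19% of cells of LT-HSC of mouse 2 (3.14 to 5.47), against 0.304% (0.131 to 0.598) and 1.05% (0.626 to 1.66) of cells of ST-HSC of mice 1 and 2. For Treml1 the shares were 1.56%, against 0.0760% and 0.176%, and for Selp 1.40%, against 0.684% and 0.527%. Gp9 was seen in 5.09% of LT-HSC of mouse 2, against 2.05% and 1.52% of ST-HSC, Itga2b in 4.85% against 2.09% and 2.11%, and F2r in 5.92% against 3.08% and 3.69%. Plek was seen in 2.79% (1.94 to 3.88) of LT-HSC of mouse 2, against 7.10% (6.15 to 8.15) and 6.85% (5.70 to 8.16) of ST-HSC. Without thinning, the shares were 15.9% against 3.04% and 2.81% for Vwf and 12.9% against 29.7% and 22.0% for Plek.

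Pf4 differed from the other members in how its UMIs were spread over cells. It was seen in 146 of the 1217 thinned cells of LT-HSC of mouse 2 (95% interval 10.2% to 14.0%), against 403 of 2633 (14.0% to 16.7%) and 234 of 1707 (12.1% to 15.4%) in ST-HSC. In unthinned cells it reached 29 UMIs in 1 cell of LT-HSC of mouse 2, against 62 and 39 UMIs in ST-HSC of mice 1 and 2, with 24, 51 and 15 cells at 10 or more. No other member reached 10 UMIs in any kept cell, and Vwf had at most 5 in LT-HSC of mouse 2, against 2 and 1 in ST-HSC. Among the 27 cells with neutrophil markers (median 10074 UMIs), 4 held a Pf4 UMI without thinning, 14.8% (4.19 to 33.7), against 36.5% of the other 5552 cells (median 9189 UMIs). None of the 27 held a Vwf or Treml1 UMI, which with an exact upper bound of 12.8% does not separate them from the other cells, 5.85% and 2.04% of which held one. For Plek the share without thinning was 51.9% (31.9 to 71.3) in those 27 cells, against 23.5% in the others. In thinned cells the Plek share was 7.41% (0.910 to 24.3), against 6.07% in the others. At that depth only 2 of the 27 held a Plek UMI, so the thinned shares cannot decide whether the 27 differ from the others.

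Whether the members sat in the same cells was asked with the 9 other than Plek, in the 3 large libraries. At 2000 UMIs a cell, 30.8% of cells of LT-HSC of mouse 2 held at least 1 of the 9, against 22.7% and 21.9% of cells of ST-HSC of mice 1 and 2. At least 2 were held by 56 cells of LT-HSC of mouse 2, where the single shares multiplied together give 54.7, against 36 where they give 40.7 and 25 where they give 27.1 in ST-HSC. As a total over the 9, the members thus met in a cell about as often as their single shares give in each library. At 5000 UMIs a cell the numbers were 218 where 211 are given in LT-HSC of mouse 2, against 164 for 179 and 124 for 128 in ST-HSC. Cells with 3 or more numbered 49 for 38.8 in LT-HSC of mouse 2, against 16 for 14.3 and 13 for 11.3 in ST-HSC, and cells with 4 or more numbered 9 for 4.29, against 1 for 0.596 and 2 for 0.520. The excess lay in few cells, and cells of 1 library are not replicates, so it has no test. Single pairs lay on both sides of the given number. In LT-HSC of mouse 2 at 5000 UMIs, Vwf and Selp shared 10 cells for 3.68, and Vwf and Pf4 shared 19 for 27.4. In ST-HSC of mice 1 and 2, Vwf and Selp shared 0 for 0.557 and 0 for 0.470. Vwf and Pf4 shared 7 for 9.14 and 13 for 8.96 there. Leaving out cells with 3 or more Ppbp UMIs left the numbers of cells with 2 or more at 56, 36 and 25. That cut took out 1 cell of LT-HSC of mouse 2, against 4 and 1 of ST-HSC, so the numbers could hardly change.

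**Figure D3:**
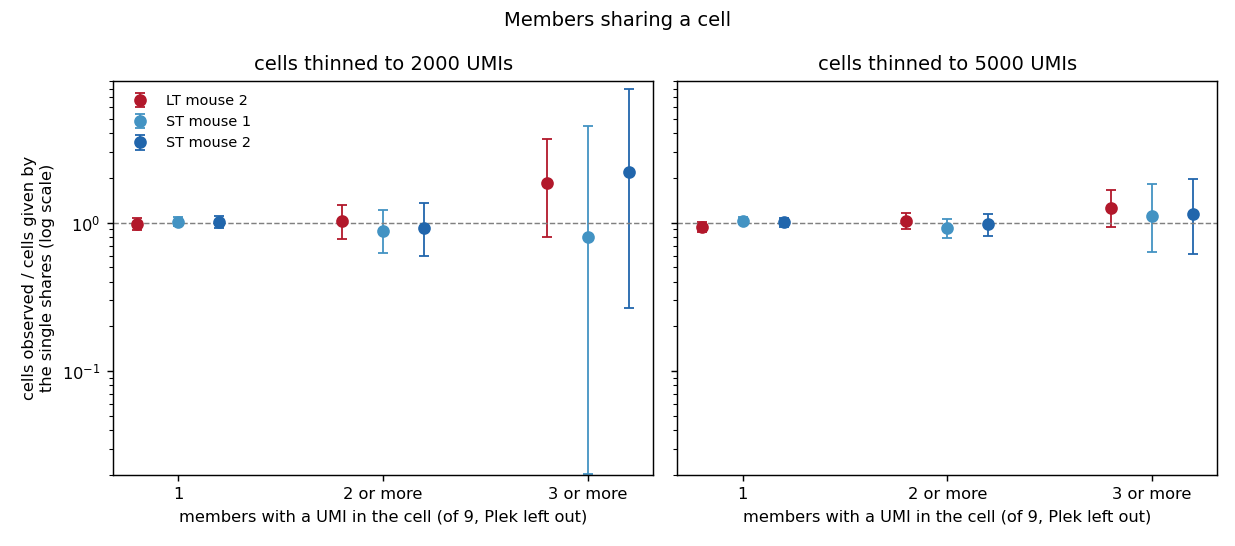
Cells that held 1, 2 or more, or 3 or more of the 9 members other than Plek, divided by the number that the product of the single shares gives (log axis, dashed line at 1), for cells thinned to 2000 UMIs at left and 5000 UMIs at right; bars are exact binomial 95% intervals for counting error. LT-HSC of mouse 2 is in red and both ST-HSC libraries in blue, and every interval reaches the line.

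Pairs of members were compared by the odds ratio of sharing a cell, at 5000 UMIs, over the 25 pairs with at least 1 shared cell given by the single shares in each of the 3 libraries, a restriction made after the data had been seen. Itga2b and F2r had the highest smallest value, with odds ratios of 1.46 in LT-HSC of mouse 2 and 1.40 and 1.40 in ST-HSC. They had 46 shared cells where 35.3 are given. At 2000 UMIs their odds ratios did not keep to 1 side, at 1.63, against 0.85 and 1.90 in ST-HSC. They then shared 8 cells where 6.51 are given. Vwf and Gp9, ligand and receptor subunit, had 1.99, against 1.35 and 1.82 in ST-HSC, with 29 shared cells where 18.4 are given. Most of these lay in LT-HSC of mouse 2, with 24 for 14.6, against 2 for 1.83 and 3 for 1.97 in ST-HSC. The ST-HSC values thus rest on few cells and on the 0.5 added to each count. At 2000 UMIs the pair shared 3 cells for 2.60 in LT-HSC of mouse 2 and 0 in each ST-HSC library. Itgb3 and Plek had the lowest smallest value, 0.24 in LT-HSC of mouse 2, where they shared 0 cells and 1.87 are given, so that the value rests on the 0.5 added to each count; in ST-HSC it was 1.06 and 0.47, on 5 shared cells and 1. Without that restriction the highest smallest value was that of Gp1bb and Itga2b, 8.83, on 1 shared cell in LT-HSC of mouse 2 and 0 in ST-HSC, and the lowest was the same.

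Using all UMIs of each cell, the level of each member was compared between cells with and without a UMI of another. In LT-HSC of mouse 2, the 194 cells with Vwf had 19.3 CPM of Selp, against 6.35 CPM in the 1023 cells without, a ratio of 3.05. Gp9 stood at a ratio of 1.58 in the same split, whereas Pf4 stood at 0.67 and Plek at 0.59; over 9242 genes with 100 or more UMIs the median ratio was 0.98 and 5% to 95% of genes lay between 0.714 and 1.34. The cells with Vwf were slightly deeper, with a median of 10902 UMIs against 10207. The genes behind that range were not matched for UMIs, and ratios of genes with few UMIs spread more by counting. Selp had 113 UMIs and Plek 197 in LT-HSC of mouse 2, with 43 and 21 in the cells with Vwf. The same limit holds for the ranges given below.

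In the 440 cells of LT-HSC of mouse 2 with Pf4, Vwf was low and Plek was high. They had 14.3 CPM of Vwf, against 28.1 CPM in the 777 cells without Pf4, a ratio of 0.51, and Itga2b stood at 1.76, Plek at 1.54 and Treml1 at 1.55 (5% to 95% of genes, 0.768 to 1.25), while Selp stood at 1.04 and Gp9 at 1.08. The 157 cells with Plek had 11.1 CPM of Vwf, against 24.7 CPM without Plek, a ratio of 0.45, while Itga2b stood at 2.09, Pf4 at 1.73 and Selp at 0.55. Within LT-HSC of mouse 2, Vwf was thus low in cells with Pf4 and in cells with Plek, and Selp was high in cells with Vwf. Itga2b did not divide the cells in that way: it stood at 1.35 in cells with Vwf, 1.79 in cells with Gp9 and 1.69 in cells with F2r, and Selp stood at 1.46 in cells with Itga2b.

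The ST-HSC libraries showed these ratios in part. Cells with Pf4 had a Vwf ratio of 0.92 in ST-HSC of mouse 1 and 2.44 in those of mouse 2, on 84 and 48 Vwf UMIs in all. Cells with Plek had Pf4 ratios of 1.01 and 1.04, against 1.73 in LT-HSC of mouse 2 above. Cells with Itga2b had Pf4 ratios of 0.68 and 0.59, whereas that ratio was 1.43 in LT-HSC of mouse 2. Itga2b in cells with Plek stood at 1.38 and 1.27 in ST-HSC, the same side as in LT-HSC of mouse 2, and the odds ratio of Itga2b and Plek was 1.31 in LT-HSC of mouse 2, against 1.13 and 1.22 in ST-HSC, at 5000 UMIs, and 3.86, against 2.05 and 1.90, at 2000 UMIs. Gp9 in cells with Itga2b kept to 1 side in all 3, at 1.75 in LT-HSC of mouse 2 and 1.37 and 1.35 in ST-HSC. At equal depth that pair kept to 1 side at 2000 UMIs but not at 5000 UMIs. Its odds ratio at 5000 UMIs was 0.94 in LT-HSC of mouse 2, against 1.32 and 0.91 in ST-HSC, with 29 shared cells where 29.0 are given. At 2000 UMIs it was 1.93, against 3.27 and 4.87, with 10 shared cells where 4.68 are given. Only 1 LT-HSC library could be split in this way, so gate and library cannot be told apart here.

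**Figure D4:**
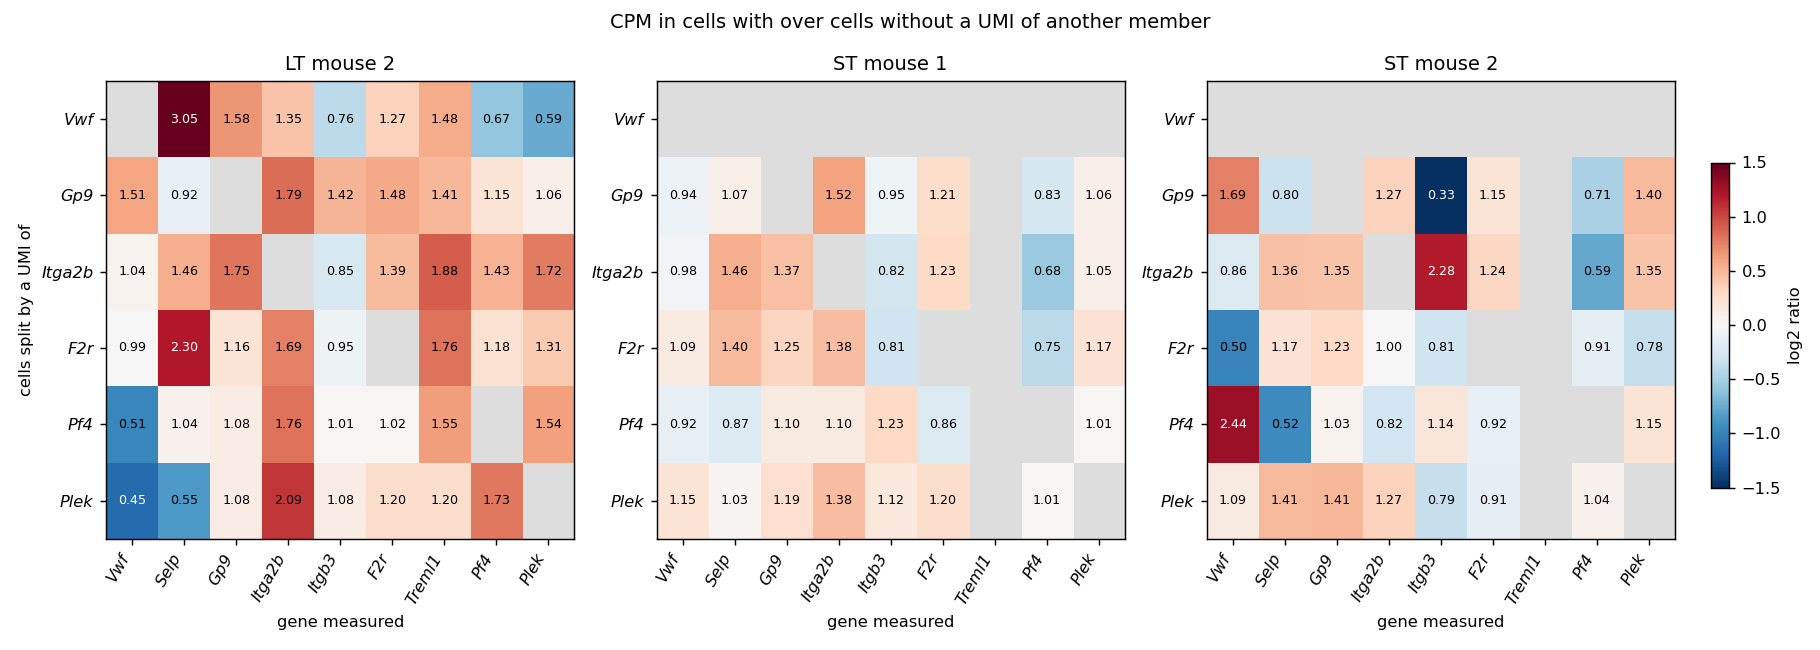
Level (CPM) of each gene on the horizontal axis in cells with over cells without a UMI of the gene on the vertical axis, as a ratio in each square and a colour on a log2 scale, for LT-HSC of mouse 2 at left and ST-HSC of mice 1 and 2; grey squares have under 30 UMIs, under 100 cells with the splitting gene, or the gene itself. In LT-HSC of mouse 2, Vwf was low in cells with Pf4 or Plek and Itga2b was high in them.

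In LT-HSC of mouse 2, Plek and Vwf also differed in the stem cell and progenitor genes they shared cells with. For 8 progenitor genes (Cd48, Flt3, Cd52, Cd53, Plac8, Ighm, Dntt and Ccl3), all of which were lower in LT-HSC, the number of cells shared with Plek at 2000 UMIs, summed over the 8 so that a cell can count more than once, was 14 where 7.01 are given in LT-HSC of mouse 2, against 254 for 221 and 174 for 145 in ST-HSC of mice 1 and 2. Plek thus met progenitor genes more often than the single shares give in each of the 3 libraries. With 8 stem cell genes (Slamf1, Procr, Mllt3, Hlf, Mecom, Fgd5, Ctnnal1 and Clec1a) it shared 43 for 56.4 in LT-HSC of mouse 2, against 243 for 241 and 148 for 153 in ST-HSC. Vwf shared 5 with progenitor genes where 10.5 are given in LT-HSC of mouse 2, against 4 for 9.45 and 26 for 22.3 in ST-HSC, so ST-HSC of mouse 2 lay on the other side of the given number. With stem cell genes Vwf shared 89 for 84.5 in LT-HSC of mouse 2, against 10 for 10.3 and 30 for 23.5 in ST-HSC. At 5000 UMIs Vwf shared 26 for 50.7 with progenitor genes in LT-HSC of mouse 2, against 55 for 71.4 and 84 for 77.2 in ST-HSC, and 398 for 327 with stem cell genes, against 80 for 71.9 and 74 for 71.5. Plek at 5000 UMIs shared 37 for 28.9 with progenitor genes in LT-HSC of mouse 2, and 1038 for 882 and 605 for 529 in ST-HSC. With stem cell genes Plek then shared 170 for 186, against 876 for 888 and 484 for 490 in ST-HSC. In proportion, the Plek numbers in LT-HSC of mouse 2 lay nearer the given numbers than at 2000 UMIs. At 2000 UMIs Pf4 shared 42 for 30.1 with progenitor genes in LT-HSC of mouse 2, but 386 for 476 and 236 for 290 in ST-HSC, the other side of the given number.

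LT-HSC of mouse 2 was also split by Slamf1 itself, whose UMIs were seen in 221 of its 1217 cells. Vwf was seen in 7.24% of the cells with Slamf1 (16 cells) and 3.51% of those without (35 cells), at 2000 UMIs. Selp was seen in 3.62% and 0.904%, Treml1 in 2.71% and 1.31%, Gp9 in 6.79% and 4.72%, and Itga2b in 6.79% and 4.42% of the same cells. Plek was seen in 0.905% of the cells with Slamf1 (2 cells) and 3.21% of those without (32 cells), and Pf4 in 13.1% and 11.7%. F2r, in 4.98% and 6.12%, and Itgb3, in 2 of 221 and 11 of 996 cells, went against the order of the gates, and the other members that the gate comparison called followed it, within 1 library and with no test, since cells are not replicates.

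No gene compared outside the members closely tracked their summed UMIs, or those of Plek, from cell to cell. Over 4813 genes seen in at least 5% of thinned cells of each of the 3 libraries, Ltb had the highest mean correlation with the summed UMIs of the 9 members other than Plek, with r = 0.07 in LT-HSC of mouse 2 and 0.15 and 0.12 in ST-HSC. Next came Cd74, Shisa5, Serpina3g, Glipr1 and Zkscan1. For Plek it was S100a11, with r = 0.22 in LT-HSC of mouse 2 and 0.00 and 0.01 in ST-HSC, then S100a6, Tmsb4x, Cdk8, Grina and Kmt2d. These are weak correlations between sparse counts of cells that share a library and are given only as a description. Pf4 weighed most in the sum of the 9, with 1224 UMIs before thinning in LT-HSC of mouse 2, against 3062 and 1305 in ST-HSC. The genes named for the 9 may therefore follow Pf4 more than the others.

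Of 62 further platelet genes in 5 lists by role, 49 were tested, of which 15 were higher in LT-HSC, 2 were lower and 32 did not pass, with a median log2 fold change of 0.23; over all genes tested, 3.6% were higher and 3.13% lower, with a median of -0.02. With the unfiltered library the counts were 17 higher and 4 lower of 53, beside 5.04% and 3.82% of all genes. Among 13 adhesion receptors, 9 were tested and Cd9, Esam, Gp5 and Jam3 were higher. Jam3, a junction protein, had 8.20 and 25.5 CPM in LT-HSC of mice 1 and 2, against 5.75 and 9.51 CPM in ST-HSC, a log2 fold change of 1.73 (edgeR adjusted p = 2.91e-10). The first of these values is 1 UMI and lies below one ST-HSC library; Esam, another junction protein, had 73.8 and 77.5 CPM in LT-HSC, against 32.6 and 39.6 CPM in ST-HSC, without overlap.

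Receptors for soluble agonists were divided. Of 9, 6 were tested and the ADP receptor P2ry1 and the ATP channel P2rx1 were higher in LT-HSC, at log2 fold changes of 1.69 and 1.03. P2rx1 had 32.8 and 27.5 CPM in LT-HSC of mice 1 and 2, against 14.2 and 12.9 CPM in ST-HSC. Tbxa2r, the thromboxane receptor, had 16.4 and 19.2 CPM in LT-HSC, against 19.7 and 23.1 CPM in ST-HSC, and passed no test. P2ry12, the other ADP receptor of platelets, had 0 and 1 UMIs in LT-HSC of mice 1 and 2, against 8 and 1 in ST-HSC, and was not tested.

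Granule genes were divided as well. Of 14, 11 were tested; Mmrn1 (multimerin), Rab27b, a GTPase of granule transport, and Pdgfb were higher in LT-HSC, and F13a1, a clotting factor subunit also made by monocytes, was lower. Mmrn1 had 90.1 and 105 CPM in LT-HSC of mice 1 and 2, against 42.5 and 35.5 CPM in ST-HSC (log2 fold change 1.40, edgeR adjusted p = 2.93e-11), and Rab27b had 41.0 and 23.5 CPM, against 8.60 and 6.92 CPM. Nbeal2, needed for alpha granules, had 8.20 and 27.5 CPM in LT-HSC, against 40.7 and 39.0 CPM in ST-HSC, a log2 fold change of -0.59 that missed the threshold (edgeR adjusted p = 0.0965). Clu and Cavin2, named after their values were seen, were nearly absent from ST-HSC. Clu had 0 and 126 UMIs in kept LT-HSC of mice 1 and 2, against 2 and 0 in ST-HSC. Unfiltered, LT-HSC of mouse 1 held 94 Clu UMIs. Cavin2, a gene of membrane caveolae, had 4 and 327 in kept LT-HSC, against 7 over both ST-HSC libraries.

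Of 16 signalling and cytoskeleton genes, 13 were tested; Gng11, Mylk and Tbxas1 were higher in LT-HSC and Syk was lower. Gng11, a G protein subunit, had 287 and 256 CPM in LT-HSC of mice 1 and 2, against 131 and 143 CPM in ST-HSC, a log2 fold change of 0.95 (edgeR adjusted p = 3.39e-05). The Syk call was lost with the mouse as a block, and that of Mylk with the unfiltered library (adjusted p = 0.246). All 10 listed transcription factors of megakaryocytes were tested, and Gfi1b, Gata2 and Zfpm1 were higher in LT-HSC. Gfi1b, a repressor of red cell and megakaryocyte development, had 32.8 and 32.0 CPM in LT-HSC, against 9.80 and 6.16 CPM in ST-HSC, a log2 fold change of 1.97 (edgeR adjusted p = 1.16e-14). Gata1 did not pass, at 0 and 1.85 CPM in LT-HSC, against 1.23 and 0.533 CPM in ST-HSC, and the Zfpm1 call was lost with the unfiltered library.

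**Figure D5:**
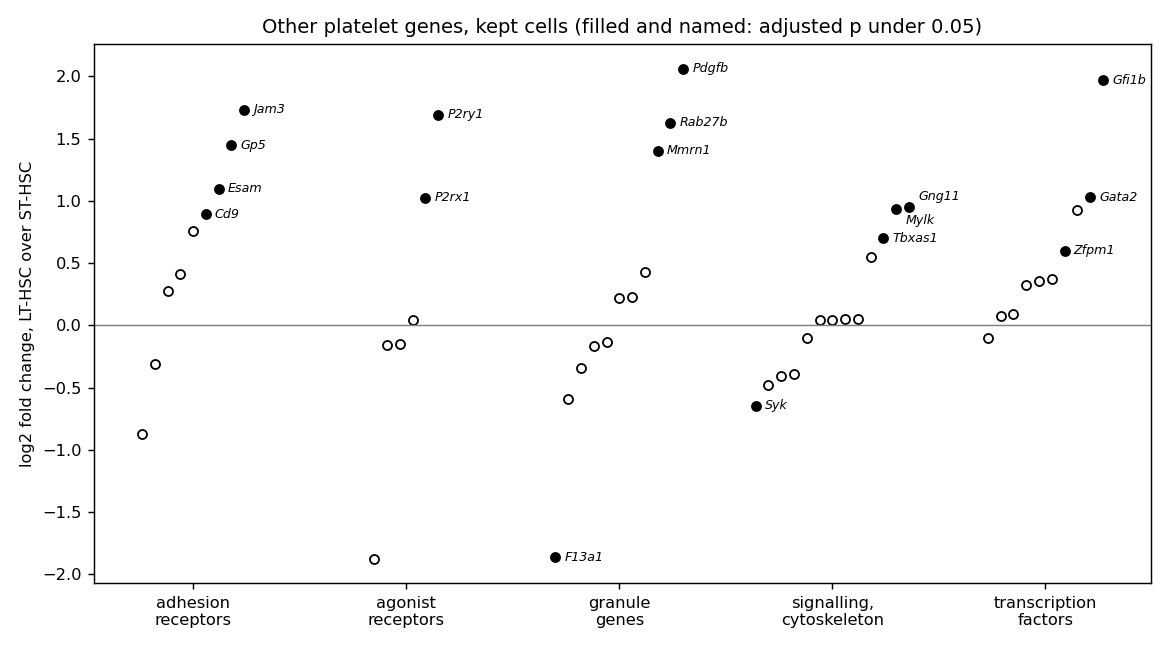
Log2 fold change of LT-HSC over ST-HSC on kept cells for the 49 tested genes of the 5 other platelet lists, by role; filled and named points passed an edgeR adjusted p of 0.05. Filled points above 0 occur in each list, and F13a1 and Syk are the filled points below it.

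Markers of platelets themselves were divided. Of 8, 5 were tested and 3 were higher in LT-HSC (Cavin2, Gp5 and Nrgn), beside the 3.6% of all genes. Cavin2 had 32.8 and 25.2 CPM in LT-HSC of mice 1 and 2, against 0.253 and 0 CPM in ST-HSC, and Gp5 had 0 and 7.17 CPM, against 2.28 and 2.89 CPM. Gp6, the collagen receptor, and Tubb1, the platelet tubulin, had 1 UMI each in LT-HSC of mouse 2 and none in the other kept cells. All 8 platelet markers summed to 330 and 372 CPM in LT-HSC of mice 1 and 2, against 201 and 208 CPM in ST-HSC, most of it from Nrgn, and the part of platelets in the results was not tested. Endothelial cells also make Vwf and Selp. Their markers summed over 10 genes, of which stem cells also make Tek, Emcn and Egfl7, to 156 and 171 CPM in LT-HSC of mice 1 and 2, against 200 and 222 CPM in ST-HSC. Egfl7 made up most of these sums, with 123 and 116 CPM in LT-HSC, against 152 and 180 CPM in ST-HSC. Tek was higher in LT-HSC (log2 fold change 1.39, edgeR adjusted p = 1.69e-04), as was Kdr with the unfiltered library (1.91), at 0 and 2.24 CPM in kept LT-HSC of mice 1 and 2, against 0.723 and 0.685 CPM in ST-HSC. Cdh5, which defines endothelial cells, had 0 UMIs in kept LT-HSC and 1 UMI in kept ST-HSC. Macrophage markers summed to 0 and 6.94 CPM in LT-HSC, against 9.47 and 11.5 CPM in ST-HSC, and mast cell and basophil markers to 0 and 3.40 CPM, against 17.8 and 84.7 CPM; the part of endothelial cells, macrophages, mast cells and basophils in the results was not tested.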

How the data were processed

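The 4 libraries were analysed, 2 per gate, from 2 mice; gate and mouse came from the labels. The deposited values are raw UMI counts per gene and barcode, made by the authors with Cell Ranger 3.1.0 and mm10, per the submitters' processing notes (3.0.2 per the file headers). The sources used here do not say how the deposited barcodes had been selected. Kept cells had 1000 or more genes, 2000 or more UMIs and at most 10% mitochondrial UMIs. Doublets were not called. Counts were summed per library and compared by edgeR 4.0.16 (its quasi-likelihood test with TMM, filterByExpr, gate as the only factor), with Benjamini-Hochberg adjustment over all genes tested; SE is the absolute log2 fold change over the root of F. Levels in CPM use TMM-scaled totals, each from its own fit for the unfiltered library; marker sums and splits of cells use plain totals. Self-tests ran on simulated counts. DESeq2 1.42.0, other scalings, no filter, stricter cell filters, left-out libraries and the mouse as a block were alternatives. Cells were thinned without replacement to 2000 or 5000 UMIs (seed 1). Mouse numbers pair libraries, because a number stands for 1 animal per the labels; the correlation between gates of the mouse difference over 6262 genes was 0.15 on kept cells and -0.22 over 6088 genes with the unfiltered library. GENCODE vM21 held 30934 of 31053 gene identifiers; promoters are RefSeq's. Members, lists and tests were chosen with earlier results of these data known. Named genes were the members, Slamf1, Cd48, Ppbp, and from each other list up to 3 genes with the smallest p at a mean of 5 CPM or more, and, by correlation across cells, 6 genes each for the 9 members and for Plek; other names, such as Gp5, P2ry1, Pdgfb, F13a1, Syk and Gata1, complete a small count or were chosen after values were seen. A listed gene is not reported here. Intervals and floors cover counting error only.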

Additional observations from a re-analysis of the deposited data

Results flagged for a closer look

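In 3 of the named genes that were compared, the difference between LT-HSC and ST-HSC had opposite signs in the 2 mice. The difference between the mice was not tested. Genes at or below the floor of a mouse's LT-HSC library in both of its gates were left out. Among them was Gp9 on kept cells, at 8.20 against 9.54 CPM in mouse 1 and 30.3 against 11.6 CPM in mouse 2. Treml1, at 0 against 0.687 CPM and 8.41 against 0.533 CPM, was another. For Pf4 on kept cells, the log2 ratio of LT-HSC to ST-HSC was 0.24 in mouse 1 and -0.07 in mouse 2, 0.32 apart. With the unfiltered library the Pf4 ratios were 0.90 and -0.07, 0.97 apart. For Ppbp with the unfiltered library they were 0.20 and -0.21, 0.41 apart, and for Tbxa2r with the unfiltered library 0.24 and -0.27, 0.51 apart.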

How the results depend on the processing

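DESeq2 on kept cells called 26 genes higher and 23 lower, with 1 member higher (Vwf, adjusted p = 0.0314) and 0 lower; with the unfiltered library it called 7 members higher and Plek lower. With the replicate block and the unfiltered library, 849 genes were higher and 628 lower. Leaving out 1 library at a time gave 1 to 602 genes higher, 0 to 365 lower, 0 to 6 members higher and 0 to 1 lower; the lowest counts came without LT-HSC of mouse 2, which leaves 22 cells in that gate, and Plek was also not called without ST-HSC of mouse 1. Without LT-HSC of mouse 2, Gp9 was at -0.36 and Mylk at -9.67 on the log2 scale, on 1 and 0 UMIs in that gate (over the left-out libraries, to 1.60 and 1.12); with the unfiltered library in its place Pf4 was at 0.97 (adjusted p = 0.00649; the cause was not tested). The replicate block on kept cells lost F2r (0.55, adjusted p = 0.316) and no other member. Cells with 1 or more of the 9 members made up 56.0% of LT-HSC of mouse 2, against 42.7% and 43.9% of ST-HSC of mice 1 and 2, at 5000 UMIs, and 75.2%, against 61.1% and 54.2%, without thinning. Of 468 values of single genes under the alternatives, 405 kept the call (21 of them, of Pf4, Ppbp, Tbxa2r and F2rl3, which were called in neither fit, with the other sign), 60 lost the call and 3 turned. The 26.0 CPM floor of LT-HSC of mouse 1 limits every kept-cell result.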
